A study of Rattus norvegicus with 29 samples.

Results

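Trichloroethylene at 24 h was examined in primary rat renal proximal tubule epithelial cells by setting the 3 libraries of exposed cultures against the 3 libraries of control cultures at the same time. These are 6 of the 29 libraries in the series, and they were chosen by the treatment and time in their labels. The other groups used here were trichloroethylene at 6 h (3 libraries) with control at 6 h (2 libraries), and acetaminophen, gentamicin and TCDD at 24 h (3 libraries each). All groups share the cell type, and no genotype, strain, sex or age of the animals is given in the sources used here, nor are the doses and the vehicle of the controls. Nothing in the labels says that replicates came from separate cultures or animals, so every p-value here reflects the variation from library to library, which may be technical. Proximal tubule cells form the part of the nephron next to the glomerulus and take up most of the filtered sugar, amino acids and salt. Trichloroethylene is an industrial solvent and degreaser. In rodents it is oxidised by cytochrome P450 enzymes and also conjugated to glutathione, and the cysteine conjugate formed from the second route can be cleaved to reactive products inside these cells, which is the reason the proximal tubule is studied as its target in the kidney.

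Messenger RNA was measured by sequencing and given as estimated counts for 28420 transcripts, each known by an Ensembl transcript identifier alone. No identifier matched a gene name in the tables used here, and so the label of the cells could not be set against proximal tubule markers, and no pathway or gene family could be counted. Groups of transcripts carry the description below, with 4 single transcripts shown in full, 2 that rose and 2 that fell. The trichloroethylene libraries at 24 h held 9539125 to 10090054 estimated counts, against 8513263 to 9515599 in the controls. At least 1 count was found for 17369 to 17501 transcripts per trichloroethylene library and for 17140 to 17238 per control library. The fragments were shorter in the exposed libraries: the mean number of bases by which the length of a transcript exceeds its effective length, a measure of fragment length, was 248.3 to 259 in the trichloroethylene libraries and 269.9 to 288.8 in the controls, with no overlap. The part that fragment length has in the results was not tested separately from the treatment; values with it as a covariate are given for the main counts.

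At 24 h, the level of a large share of the transcripts differed between trichloroethylene and control cultures, most of them by less than 2-fold. Of the 15990 transcripts with enough counts to test, 6505 (40.7%) were called, meaning that their edgeR quasi-likelihood test gave a Benjamini-Hochberg adjusted p under 0.05. Of these, 3315 rose (20.7% of those tested) and 3190 fell (19.9%). The log2 changes, from the lower to the upper quartile, were 0.47 to 1.09 among the transcripts that rose, with a median of 0.69, and -0.89 to -0.4 among those that fell, with a median of -0.58. The median standard error of a log2 change over all tested transcripts was 0.156. Over all tested transcripts the median log2 change was 0.

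Large changes were mostly rises. A change of more than 1.5-fold was reached by 2027 of the transcripts that rose (61.1%) and by 1586 of those that fell (49.7%), together 55.5% of the calls. More than 2-fold changes numbered 948 rises and 617 falls, together 24.1% of the calls. More than 4-fold changes numbered 235 rises and 91 falls, and more than 8-fold changes 65 rises and 25 falls. Transcripts without a count in 1 of the groups enter these numbers at a lower bound, in which that group is set at 3 counts per library.

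**Figure D1:**
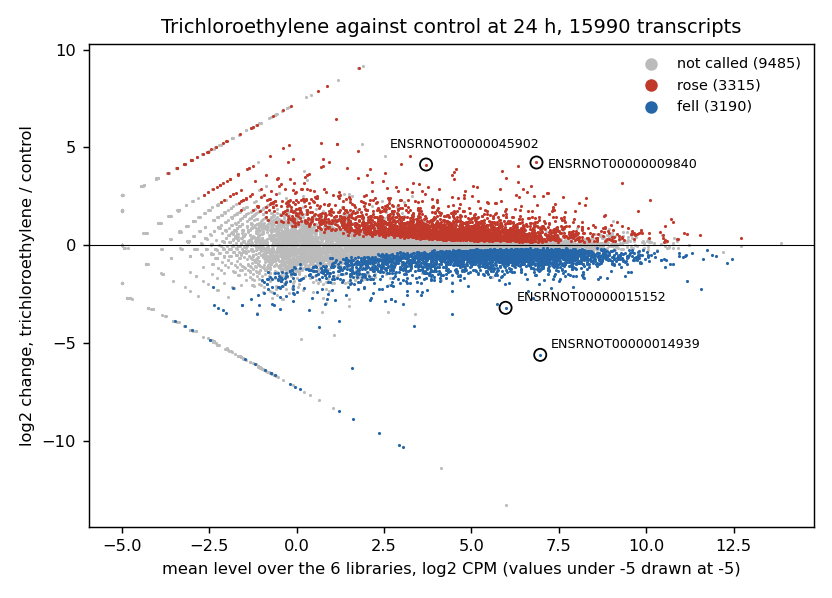
Log2 change between the trichloroethylene and control libraries at 24 h against the mean level over the 6 libraries in log2 CPM (counts scaled to library size), 1 point per tested transcript. The 3315 rises (red) and 3190 falls (blue) lie on both sides of 0 over the whole range of levels, and the 4 circled transcripts are those described by identifier; the straight rays at the left are transcripts without a count in 1 group.

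The split between rises and falls rests on how libraries are scaled to each other. With the TMM factors used throughout, rises were 51% of the calls. With total counts as the scale, rises were 63.4%, or 4163 rises and 2406 falls, and the median of all transcripts moved up by 0.0967 on the log2 scale. On log2(TPM + 1), tested with limma, 3462 rose and 2561 fell. No called transcript was called in the opposite direction under any of the 11 alternatives that kept all libraries or with any of the 6 libraries left out in turn. In all of these settings together, 3408 of the called transcripts (52.4%) passed in the same direction, 1772 as rises and 1636 as falls. With fragment length as a covariate, 5248 transcripts passed, of which 4441 were among the 6505.

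The libraries of each group lay closer to each other than to those of the other group. The root mean square difference in log2(CPM + 0.5) over the tested transcripts was 0.425 to 0.482 between pairs of trichloroethylene libraries and 0.449 to 0.519 between pairs of controls. Between a trichloroethylene library and a control it was 0.658 to 0.84. Without overlap between the groups, 4297 transcripts had all 3 trichloroethylene libraries above all 3 controls and 4088 had all 3 below, together 52.4% of those tested beside the 40.7% called. Among the called transcripts 6254 (96.1%) were of this kind.

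Replicate 2 of trichloroethylene showed the widest departure from the controls. The median log2 difference from the mean of the controls, over the transcripts that rose, was 0.62, 0.73 and 0.66 in trichloroethylene replicates 1, 2 and 3. Over those that fell it was -0.53, -0.63 and -0.55. Among the 235 rises of more than 4-fold, replicate 2 was the highest of the 3 exposed libraries in 166 (70.6%), and among the transcripts not called in 3320 (35%). Among the 91 falls of more than 4-fold it was the lowest in 46 (50.5%), and among the transcripts not called in 3619 (38.2%). Without replicate 2, 5461 transcripts passed, 2784 of them rises.

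The rule for single transcripts required a call and no overlap between the groups. It also required at least 10 estimated counts in each of the 6 libraries and a mean of at least 100. The 2 transcripts that rose most by this rule stood at no more than 14 TPM in any control at 24 h. ENSRNOT00000009840, of 1415 bases, stood at 180, 332 and 227 TPM in the trichloroethylene libraries and at 12, 12.4 and 14 TPM in the controls, where TPM is the abundance scaled to transcript length and to the total of each library. The lack of overlap follows from the rule; replicate 2 was the highest of the exposed libraries. The counts behind these values were 1761, 3251 and 2084 with trichloroethylene and 93, 106 and 129 in controls, all whole numbers. Its fitted log2 change was 4.23 ± 0.19 (SE; edgeR adjusted p = 3.8e-14), an 18.8-fold rise. ENSRNOT00000045902, of 2034 bases, stood at 13.3, 25.2 and 15.2 TPM with trichloroethylene and at 0.919, 1.37 and 0.703 TPM in controls, a log2 change of 4.13 ± 0.25 (adjusted p = 4.5e-12). Replicate 2 was again the highest exposed library. The next 10 transcripts in the same order had log2 changes of 3.05 to 4.05 and mean levels of 10.6 to 868 TPM with trichloroethylene, beside 0.79 to 93.1 TPM in controls. In 8 of these 10, replicate 2 was the highest exposed library.

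The 2 transcripts that fell most by the same rule both had estimated counts that were not whole, which shows that the authors' tool divided reads between them and other transcripts. ENSRNOT00000014939, of 5906 bases, stood at 1.51, 0.943 and 0.986 TPM in the trichloroethylene libraries and at 86, 41.2 and 36.3 TPM in the controls. Its log2 change was -5.61 ± 0.95 (SE; edgeR adjusted p = 7.9e-05), and with fragment length as a covariate it was -4.41 (adjusted p = 0.0023). The controls spread widely, with replicate 1 far above the others. ENSRNOT00000015152, of 1502 bases, stood at 14.1, 9.19 and 15.2 TPM with trichloroethylene and at 116, 141 and 91 TPM in controls. Its log2 change was -3.2 ± 0.44 (adjusted p = 5.9e-06), and -2.36 with the fragment length covariate (adjusted p = 8.7e-05). The next 10 falls had log2 changes of -2.99 to -2.12, with mean levels of 1.93 to 1180 TPM under trichloroethylene beside 10.3 to 5510 TPM in controls, and in 9 of the 10 replicate 2 was the lowest exposed library. Whether a fall of a transcript with shared reads is a loss of the gene's RNA or a shift to another transcript cannot be told from these tables.

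**Figure D2:**
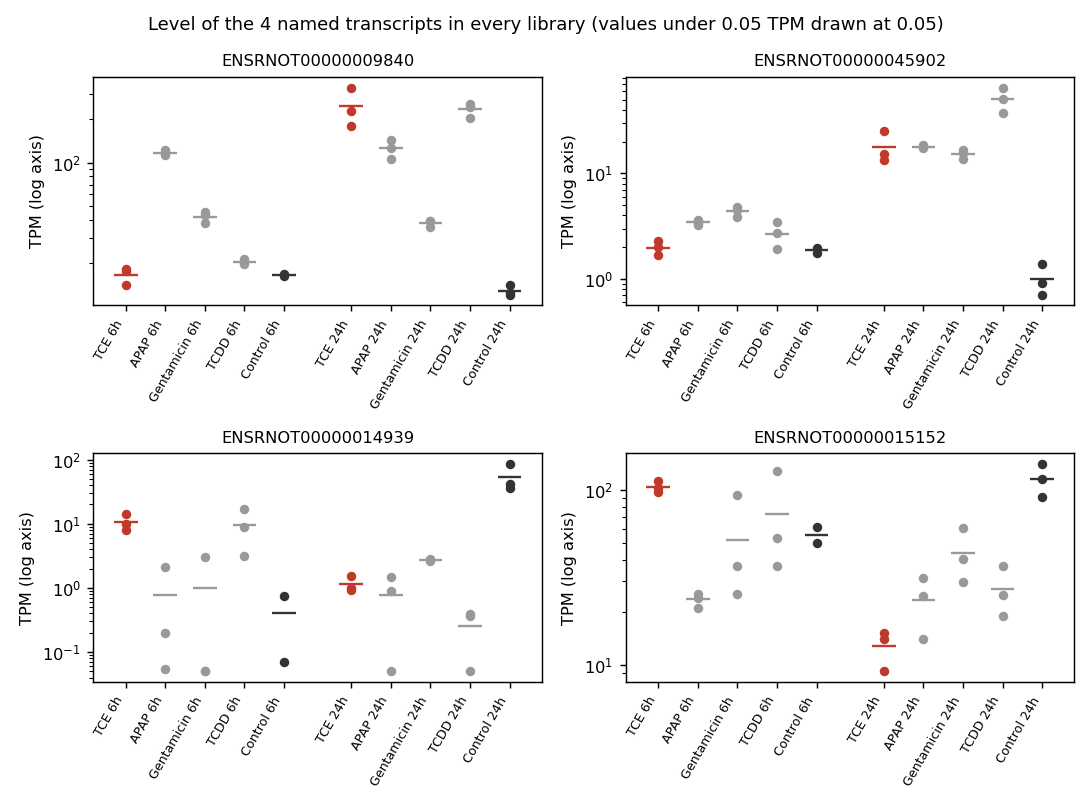
TPM (log axis) of the 4 named transcripts in each library, by group and time; points are libraries and bars are group means. At 24 h the 3 trichloroethylene libraries (red) of ENSRNOT00000009840 and ENSRNOT00000045902 lie above the 3 controls (black), and those of ENSRNOT00000014939 and ENSRNOT00000015152 lie below them.

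Both transcripts that rose also rose with the other compounds at 24 h, each set against the same 3 controls. Both were picked for low levels in these controls beside trichloroethylene, so the choice favours rises here. ENSRNOT00000009840 averaged 246 ± 77.7 TPM with trichloroethylene (SD, n = 3), 125 ± 18.9 with acetaminophen, 37.9 ± 2.11 with gentamicin and 235 ± 26.3 with TCDD, beside 12.8 ± 1.02 TPM in controls. Compared directly, trichloroethylene was above acetaminophen by a log2 change of 1.09 ± 0.16 (edgeR adjusted p = 2.5e-06) and above gentamicin by 2.52 ± 0.17 (adjusted p = 4.9e-12), and below TCDD by a log2 change of -0.37 ± 0.16 (adjusted p = 0.044). The order against TCDD depends on the scale, since the mean TPM with trichloroethylene was the higher of the pair. For ENSRNOT00000045902 the means were 17.9 ± 6.39 TPM with trichloroethylene, 17.8 ± 0.658 with acetaminophen, 15.4 ± 1.53 with gentamicin and 51.1 ± 14 with TCDD, beside 0.996 ± 0.339 TPM in controls. It was lower with trichloroethylene than with TCDD (log2 change -1.91 ± 0.17, adjusted p = 1.1e-09), while the differences from acetaminophen (0.13 ± 0.18, adjusted p = 0.54) and gentamicin (0.04 ± 0.18, adjusted p = 0.87) did not pass.

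The transcripts that fell were likewise below control with the other compounds. Both were picked for high levels in these same controls beside trichloroethylene, so the choice favours falls here. ENSRNOT00000015152 averaged 12.8 ± 3.2 TPM with trichloroethylene (SD, n = 3), 23.5 ± 8.81 with acetaminophen, 43.4 ± 15.6 with gentamicin and 27 ± 9.08 with TCDD, beside 116 ± 25.1 TPM in controls. Trichloroethylene gave the lowest mean of the 4, and its level was below that with gentamicin (log2 change -1.92 ± 0.44, edgeR adjusted p = 0.00072) and TCDD (-1.5 ± 0.45, adjusted p = 0.0063), whereas the difference from acetaminophen did not pass (-0.72 ± 0.45, adjusted p = 0.19). ENSRNOT00000014939 averaged 1.15 ± 0.317 TPM with trichloroethylene, 0.787 ± 0.739 with acetaminophen, 2.73 ± 0.0993 with gentamicin and 0.253 ± 0.22 with TCDD, beside 54.5 ± 27.4 TPM in controls. In the 6 h controls this transcript averaged 0.407 TPM (n = 2). Its log2 differences between trichloroethylene and acetaminophen (0.72 ± 1.2, adjusted p = 0.64), gentamicin (-1.44 ± 1, adjusted p = 0.22) and TCDD (1.73 ± 1.44, adjusted p = 0.31) did not pass, with errors of around 1 or more on the log2 scale.

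The share of transcripts called was 13.4% under 1 TPM, 35% from 1 to 10, 48% from 10 to 100 and 55.9% from 100 to 1000 TPM, and the balance of directions turned with abundance. Among transcripts with a mean under 1 TPM over the 6 libraries, 189 of 1996 rose and 79 fell, where the median SE of 0.801 allows only large changes to be seen. From 1 to 10 TPM, 970 of 4526 rose and 614 fell. From 10 to 100 TPM the directions were near balance, with 1880 rises and 1928 falls among 7927. From 100 to 1000 TPM falls prevailed: 243 of 1391 rose and 535 fell, so that 38.5% of this class fell. Falls outnumbered rises in this class in all 11 settings examined with all libraries, by 445 to 325 with total counts as the scale and by 584 to 186 with the fragment length covariate. At 1000 TPM or more, 33 of 150 rose and 34 fell, and there the balance moved with the setting, from 9 rises and 44 falls with the fragment length covariate to 62 rises and 37 falls on log2(TPM + 1). Large changes were concentrated in scarce transcripts: of the 235 rises of more than 4-fold, 88 were under 1 TPM and 102 from 1 to 10 TPM.

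Among the 10 most abundant transcripts of the 24 h controls, at 4880 to 14300 TPM, 6 fell and 1 rose. Their log2 changes ran from -2.24 to 0.39. Of the 100 most abundant, 25 fell and 20 rose, with a median log2 change of 0.22 over the 100. Of the 1000 most abundant, 435 fell and 121 rose, and 75 changed by more than 2-fold, with a median log2 change of -0.22 over the 1000. Since these were picked for a high level in the controls that the test uses, the choice itself leans toward falls. The deposited TPM in the transcripts that fell made up 22.7%, 21% and 22.1% of the total in the trichloroethylene libraries, beside 37%, 35.9% and 31.9% in the controls. The transcripts that rose made up 25.2%, 26.9% and 25.8% with trichloroethylene, beside 15.2%, 15.7% and 16.8% in controls. These shares describe transcripts chosen by the same comparison and carry no test of their own.

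**Figure D3:**
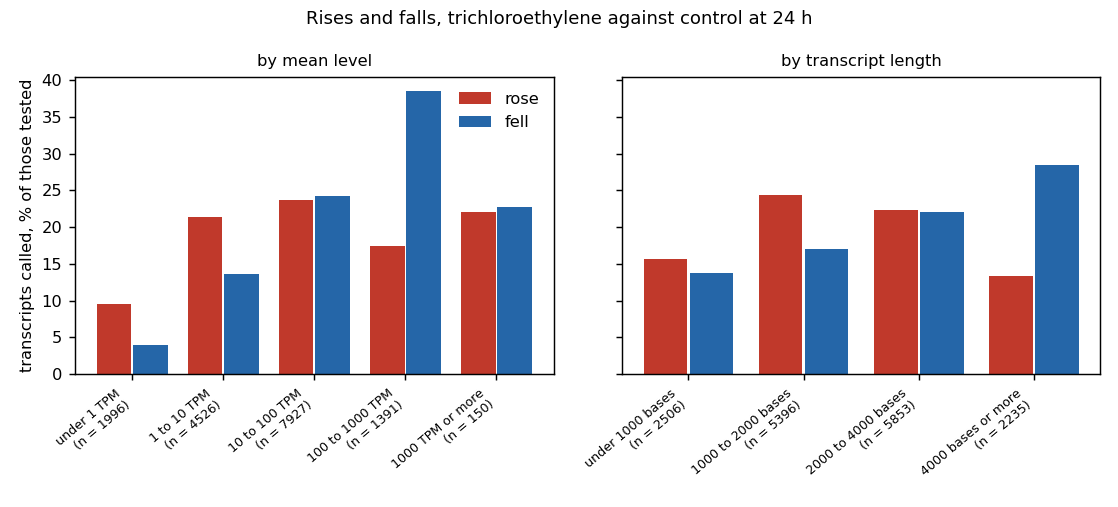
Percentage of tested transcripts that rose (red) or fell (blue) at 24 h with trichloroethylene, by mean TPM over the 6 libraries (left) and by transcript length (right), with the number tested in each class. From 100 to 1000 TPM 38.5% fell and 17.5% rose, and among transcripts of 4000 bases or more 28.5% fell and 13.4% rose.

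Direction also went with transcript length. Of 2235 tested transcripts of 4000 bases or more, 637 fell (28.5%) and 300 rose (13.4%), while from 1000 to 2000 bases 1319 of 5396 rose and 919 fell. With fragment length as a covariate the long class had 320 rises and 389 falls, and the class under 1000 bases, with 393 rises and 345 falls in the fit without it, had 212 and 395. With counts adjusted instead for effective length in each library, the long class had 316 rises and 614 falls. The class under 1000 bases then had 354 and 393. The relation of direction to length is therefore given together with the fragment lengths above. Estimated counts were whole, within 0.001, in all 6 libraries for 10094 of the tested transcripts, and in that group 2596 rose and 1943 fell (45% called). Of the 5896 transcripts with reads shared out in at least 1 library, 719 rose and 1247 fell (33.3% called). Shared reads were more frequent among the large falls than among the large rises: they were found in 61 of the 91 falls and in 64 of the 235 rises of more than 4-fold, a description with no test.

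Some transcripts had no count at all in 1 of the groups: among the called transcripts, 30 had none in any control and 18 none in any trichloroethylene library. In 4 cases a transcript had no count in any control and at least 10 in each trichloroethylene library, with 12.8 to 91.2 estimated counts, and in 5 cases the opposite held, with 32.3 to 1830 counts in the controls. All 9 had shared reads. The bound on their log2 change, with the empty group set at 3 counts per library, was at least 3.23 for the 4 that appeared and at least 4.46 for the 5 that disappeared. By the edgeR test, 3 of the 4 that appeared and 3 of the 5 that disappeared were among the called transcripts, and the others did not pass. All 9 were picked for the difference itself, so no test of them as a set is given.

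The response was smaller than that to each of the other compounds at the same time, counted against the same 3 controls. Called transcripts numbered 6505 (40.7%) for trichloroethylene, 9500 (59.4%) for acetaminophen, 9525 (59.6%) for gentamicin and 10701 (66.9%) for TCDD. The median size of the log2 change over all 15990 transcripts, regardless of sign, was 0.391 for trichloroethylene, 0.605 for acetaminophen, 0.634 for gentamicin and 0.766 for TCDD. Trichloroethylene had the fewest calls in all 11 alternatives with all libraries and without each control in turn. With the fragment length covariate the counts were 5248 for trichloroethylene, 8750 for acetaminophen, 9427 for gentamicin and 7729 for TCDD, so that the order of the other 3 changed. The difference between the counts themselves has no test, since they share controls.

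**Figure D4:**
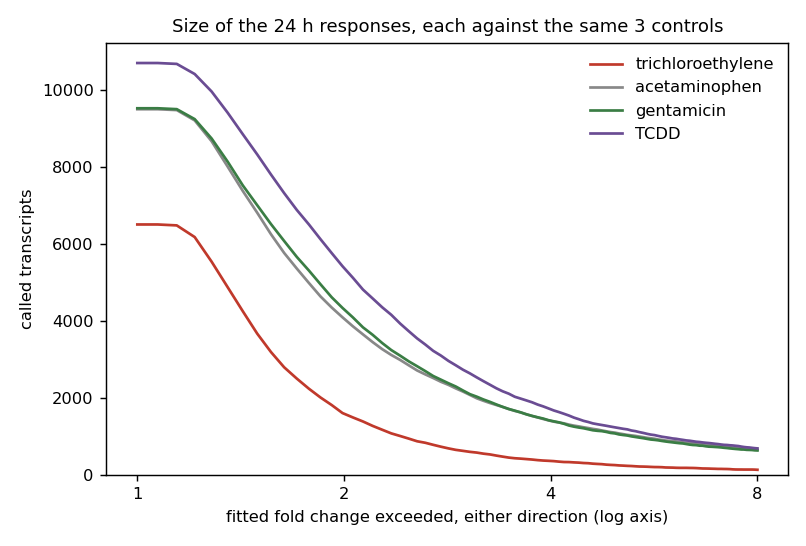
Number of called transcripts whose fitted change at 24 h exceeds the fold on the horizontal axis (log scale), for the 4 compounds against the same 3 controls. The trichloroethylene line starts at 6505 and stays below the lines of acetaminophen, gentamicin and TCDD, which start at 9500, 9525 and 10701.

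Direct comparisons showed where trichloroethylene stood apart from the other compounds. The level in the controls does not enter these differences, though the controls share in the scaling and the estimate of spread of the fit. Trichloroethylene was higher than acetaminophen in 4330 transcripts (27.1% of those tested) and lower in 4512 (28.2%), higher than gentamicin in 5035 (31.5%) and lower in 4834 (30.2%), and higher than TCDD in 4740 and lower in 4740 (29.6% each). The split moved with the scale. Of the differences from acetaminophen, 40.8% were higher with total counts in place of TMM factors and 40.2% on log2(TPM + 1). Of those from gentamicin the shares were 68.9% and 61.7%, and of those from TCDD 62.5% and 76.6%. With the fragment length covariate, trichloroethylene differed from acetaminophen in 9311 transcripts, from gentamicin in 10178 and from TCDD in 8679.

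A set of 658 transcripts (4.12% of those tested) passed against control and against each of the other 3 compounds in the same direction. Of these, 343 were highest with trichloroethylene (2.15%) and 315 were lowest (1.97%). With total counts as the scale the set held 543 and 162, and on log2(TPM + 1) 524 and 140, so the near balance of directions holds with TMM factors, and with median-of-ratios factors (330 and 332), but not on those scales. The median log2 change against control of the 343 was 0.7 with trichloroethylene, -0.3 with acetaminophen, -0.37 with gentamicin and -0.15 with TCDD. For the 315 it was -0.57 with trichloroethylene, 0.06 with acetaminophen, 0.23 with gentamicin and 0.12 with TCDD. That trichloroethylene lies beyond the other compounds in these medians follows from the rule that picked the transcripts, and the medians carry no test of their own. Among the 343, 96 rose by more than 2-fold and 25 by more than 4-fold, and among the 315, 50 and 11 fell by as much. Calls against control with the other compounds were common among all tested transcripts: 59.4% with acetaminophen, 59.6% with gentamicin and 66.9% with TCDD, both directions together. Of the 343, 45 were called above control with acetaminophen, 43 with gentamicin and 68 with TCDD, and 165, 172 and 139 below it. Of the 315, 53, 22 and 57 were called below control with these compounds in the same order, and 108, 154 and 117 above it. The lean of these counts to the side opposite trichloroethylene is favoured by the rule that picked the transcripts. Not called against control with any of the other 3 compounds were 28 of the 343 and 39 of the 315. None of the 4 named transcripts was in this set.

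At 6 h no transcript passed for trichloroethylene against control in the edgeR test, and 2070 (12.9%) had an unadjusted p under 0.05. DESeq2 called 23 and limma 8, and 450 passed when only those 5 libraries were fitted. The difference between the effects at 24 h and at 6 h passed for 5282 transcripts (33%), 2569 of them higher and 2713 lower at 24 h. With the fragment length covariate it passed for 2664. ENSRNOT00000009840 stood at 18.2, 14.2 and 17.5 TPM with trichloroethylene at 6 h, beside 16.7 and 16.3 TPM in the controls of that time, a log2 change of -0.12 ± 0.22 (edgeR adjusted p = 0.83), and its effect at 24 h exceeded that at 6 h by 4.35 ± 0.29 (adjusted p = 1.3e-10). For ENSRNOT00000045902 the 6 h change was -0.04 ± 0.31 (adjusted p = 0.98) and the difference 4.16 ± 0.42 (adjusted p = 1e-07). Both rises were thus called at 24 h and not at 6 h, with the difference between the times itself called. All 4 named transcripts were picked for their change at 24 h, which is part of that difference, so the choice favoured its call.

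The transcripts that fell at 24 h had higher means with trichloroethylene than in control at 6 h, though neither passed at that time. ENSRNOT00000014939 was at 10.1, 14 and 8.1 TPM with trichloroethylene at 6 h and at 0.742 and 0.0712 TPM in the 6 h controls (log2 change 4.62 ± 1.27, edgeR adjusted p = 0.36), and its effect differed between the times by -10.22 ± 1.58 (adjusted p = 6.9e-05). Its controls were higher at 24 h than at 6 h (log2 change 6.93 ± 1.28, adjusted p = 0.00081), while its exposed libraries were lower at 24 h (-3.3 ± 0.93, adjusted p = 0.0063). ENSRNOT00000015152 was at 112, 102 and 97.1 TPM with trichloroethylene at 6 h and at 49.5 and 61.2 TPM in the controls of that time (log2 change 0.77 ± 0.44, adjusted p = 0.43). It fell between the times in exposed cultures (-3.08 ± 0.44, adjusted p = 6.8e-06), and its change in controls did not pass (0.9 ± 0.44, adjusted p = 0.14).

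Over all calls, the 6 h change leaned against the 24 h change. The groups of the 2 times share no library. Of the 3190 transcripts that fell at 24 h, 2206 (69.2%) were above 0 at 6 h, and of the 3315 that rose, 1296 (39.1%), beside 51.9% of all tested transcripts. The medians at 6 h were 0.11 among the falls and -0.06 among the rises. Fragment length moved the same way: at 6 h it was longer with trichloroethylene (269.3 to 278.2 bases) than in controls (257.1 and 263.2), the reverse of 24 h. With fragment length as a covariate, the transcripts were called anew, giving 2604 falls and 2644 rises at 24 h. In that fit the share above 0 at 6 h was 52.2% among those falls, 52.6% among those rises and 53% among all tested transcripts. The share for the 3190 and 3315 transcripts in that fit was not computed. That recalculation was added after the data were seen.

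**Figure D5:**
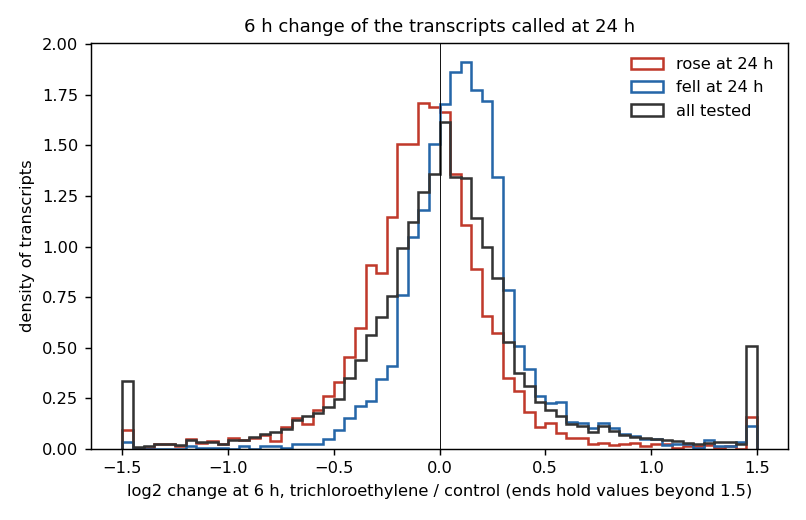
Distribution of the log2 change at 6 h, trichloroethylene over control, for the transcripts that rose (red) or fell (blue) at 24 h and for all tested transcripts (black), drawn as density. Of the falls of 24 h, 69.2% lie to the right of 0 at 6 h, with a median of 0.11 over all falls. Of the rises 39.1% lie to the right of 0, with a median of -0.06 over all rises. The values drawn are from the fit without the fragment length covariate. In the fit with it, the shares were 52.2% of the 2604 falls and 52.6% of the 2644 rises called anew.

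Transcripts also differed between the times within each treatment. Between 6 h and 24 h, 7602 transcripts (47.5%) changed with trichloroethylene, 3915 upward and 3687 downward, and 3985 (24.9%) changed in controls, 1973 upward and 2012 downward. Fragment length of the controls also differed between the times, at 269.9 to 288.8 bases at 24 h and 257.1 and 263.2 at 6 h, and its part in the control count cannot be told apart from time. The control count rests on few libraries: it was 1633 without control replicate 2 of 6 h, 1804 without replicate 3 of 6 h and 2116 without control replicate 1 of 24 h. With the fragment length covariate it was 2262. The trichloroethylene count over time was 6573 to 6998 with each of its libraries left out in turn.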

How the data were processed

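Reads were assigned by the authors with kallisto 0.43, a pseudoaligner, per the submitters' processing notes. Each deposited table gives a library's estimated (expected) count, TPM, length and effective length for 28420 transcripts, per the file headers. The estimated counts need not be whole, because reads that match several transcripts are divided among them, and the authors' deposited TPM is those counts scaled to effective length and library total. No transcript release, strand setting or trimming step is given in the sources used here.

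Estimated counts were rounded. filterByExpr at a minimum count of 10 left 15990 transcripts, with 99.95% of the counts. With edgeR 4.0.16 in R 4.3.3, 1 robust quasi-likelihood model with TMM factors and a coefficient per group was fitted to all 29 libraries with 19 residual degrees of freedom. Comparisons are contrasts of this fit. The SE is the size of a log2 change divided by the square root of F. Pairs of trichloroethylene libraries and pairs of control libraries at 24 h differed by a chi-square of 3.2 to 12.8 per degree of freedom, so none of these 6 was a duplicate. The rule for named transcripts takes the 2 largest changes in each direction where no gene names can be had; a transcript had to be called, reach 10 counts in each of the 6 libraries and average 100, without overlap between groups. The gene lists and markers planned by name were not used, since 0 identifiers matched. Fragment length was taken over transcripts of at least 1000 bases. Steps were tested on simulated data. Alternatives used DESeq2 1.42.0, limma 3.58.1, other scaling, filters, covariates and libraries. The libraries, the rule, the tests and the lists were chosen with earlier results of these data known. No batch or date is given in the labels.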

Additional observations from a re-analysis of the deposited data

Results flagged for a closer look

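The effect of trichloroethylene against control differed between 24 h and 6 h for 5282 transcripts by the contrast of the effects at both times (edgeR, adjusted p under 0.05). All 4 named transcripts were among them, which their choice by the 24 h change favours. The log2 difference of the effect, 24 h minus 6 h, was 4.35 for ENSRNOT00000009840, 4.16 for ENSRNOT00000045902, -10.22 for ENSRNOT00000014939 and -3.98 for ENSRNOT00000015152. The value for ENSRNOT00000014939 rests on 3.69 and 36.1 estimated counts in the 6 h controls, and its reads were shared with other transcripts. Fragment length was shorter than control at 24 h and longer than control at 6 h in the trichloroethylene libraries. With it as a covariate the count was 2664.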

How the results depend on the processing

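The count for trichloroethylene against control at 24 h ran from 5248 with the fragment length covariate to 6809 with DESeq2, and from 5387 to 6348 with each library left out. The 4 named transcripts kept their direction and call in all 17 settings. At 6 h the count of 0 became 23 with DESeq2, 8 with limma on log2(TPM + 1) and 450 with only the compared groups, and ran from 0 to 2 with a library left out. The control count between the times became 2262 with the fragment length covariate and ran from 1633 to 4304 with a library left out. The difference of the trichloroethylene effect between the times became 2664 with that covariate; left-out libraries gave 3600 to 5614. Where a left-out library leaves 1 control at 6 h, its spread is taken from the other groups. The cause of these shifts was not tested. Rises made up 64.4% of the trichloroethylene calls between the times with total counts (51.5% with TMM factors), 69.1% of those in controls on log2(TPM + 1) (49.5%) and 59.6% of the calls for the difference of the effects with total counts (48.6%). With a replicate block the count at 24 h was 6391. The labels do not say whether the replicate numbers pair the libraries. Deviations of same-numbered libraries correlated at -0.0215, 0.0299 and 0.0861, and those of differently numbered libraries at -0.0892 to 0.0524. With 3 libraries per group these values cannot decide whether libraries are paired. Depth limits scarce transcripts, with a median SE of 0.801 under 1 TPM.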
